A study of Homo sapiens with 7 samples.

Results

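In OCI-Ly7 cells, 11896 genomic regions carried peaks of OCA-B, OCT2, MED1, CREBBP and EP300 and no peak of OCT1. They were found by joining peaks of the 6 factors that overlapped by at least 1 bp on chromosomes 1 to 22 and X, and they made up 10.7% of the 111561 joined regions. They are set beside the 10590 regions that held all 6 factors. OCI-Ly7 is an established human line of diffuse large B-cell lymphoma, a tumour of mature B cells, grown in suspension without any treatment or genetic change named in the labels. Each factor was mapped by chromatin immunoprecipitation and sequencing (ChIP-seq), which recovers the DNA bound by an antibody's target, from 1 library, and all 6 peak lists were called against the same input DNA. The libraries held 12357450 to 27885791 tags after duplicate removal, and OCT1, with 22503613, was not among the shallow ones. The regions were chosen by the presence and absence of peaks in these same 6 lists, so their fold enrichments, counts and patterns below are a description and carry no test. With 1 library per factor and 1 cell line, no value has a replicate check.

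OCT1 (POU2F1) and OCT2 (POU2F2) are POU-domain transcription factors that read the same octamer sequence, ATGCAAAT. OCT1 is made in nearly all cells, whereas OCT2 is found mainly in B cells and the nervous system. OCA-B (POU2AF1) is a B-cell coactivator that docks onto the POU domain of either protein on octamer DNA and is needed for germinal centres, the structures in which B cells mature after meeting antigen. MED1 is a subunit of Mediator, the complex that links enhancer-bound factors to RNA polymerase II, and CREBBP and EP300 are closely related acetyltransferases that mark active enhancers and promoters. The regions described here thus carry the B-cell octamer pair with its cofactors and lack a called peak of the ubiquitous octamer reader. Absence means that no OCT1 peak passed the authors' q threshold of 0.05, and weaker OCT1 signal cannot be read from peak lists.

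The octamer itself could be read in promoter windows, which run from 250 bases before to 50 bases after a gene start in RefSeq (GRCh38.p14). The regions without OCT1 overlapped 933 such windows, and 12 of these held ATGCAAAT on either strand. The 8 windows shown are those in which an octamer centre lay within 50 bp of the OCT2 summit, the base of highest signal in a peak. Each line gives the 250 bases before the start, read on the gene's strand, with the octamer in capitals (ATTTGCAT is the same octamer read on the other strand).
CCR6 (chr6:167122846-167123095, plus strand): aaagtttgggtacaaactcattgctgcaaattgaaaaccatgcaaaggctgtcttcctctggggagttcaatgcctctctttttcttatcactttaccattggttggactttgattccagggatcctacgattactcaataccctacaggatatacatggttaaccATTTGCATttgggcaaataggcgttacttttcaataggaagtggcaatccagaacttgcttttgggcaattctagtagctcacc
TRIM34 (chr11:5632005-5632254, plus strand): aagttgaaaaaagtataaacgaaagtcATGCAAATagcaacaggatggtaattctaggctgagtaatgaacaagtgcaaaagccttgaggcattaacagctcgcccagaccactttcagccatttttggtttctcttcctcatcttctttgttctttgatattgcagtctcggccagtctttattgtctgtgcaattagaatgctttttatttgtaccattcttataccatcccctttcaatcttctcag
ARHGAP25 (chr2:68735127-68735376, plus strand): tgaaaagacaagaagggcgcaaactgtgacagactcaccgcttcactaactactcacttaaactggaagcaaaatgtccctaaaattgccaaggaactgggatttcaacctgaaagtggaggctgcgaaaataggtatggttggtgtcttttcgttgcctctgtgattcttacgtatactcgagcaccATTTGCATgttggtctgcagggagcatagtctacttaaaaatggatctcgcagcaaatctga
ZNF92 (chr7:65373605-65373854, plus strand): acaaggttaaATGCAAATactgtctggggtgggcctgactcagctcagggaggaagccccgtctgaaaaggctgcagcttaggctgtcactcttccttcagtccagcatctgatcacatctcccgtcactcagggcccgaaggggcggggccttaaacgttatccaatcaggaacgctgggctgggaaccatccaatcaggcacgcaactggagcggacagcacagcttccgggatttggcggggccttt
LOC105371388 (chr16:85945129-85945378, plus strand): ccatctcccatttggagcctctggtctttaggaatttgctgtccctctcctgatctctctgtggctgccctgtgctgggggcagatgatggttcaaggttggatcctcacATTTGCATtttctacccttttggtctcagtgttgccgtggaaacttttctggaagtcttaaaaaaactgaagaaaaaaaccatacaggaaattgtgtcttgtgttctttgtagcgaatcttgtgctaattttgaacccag
LOC124902541 (chr10:3875329-3875578, minus strand): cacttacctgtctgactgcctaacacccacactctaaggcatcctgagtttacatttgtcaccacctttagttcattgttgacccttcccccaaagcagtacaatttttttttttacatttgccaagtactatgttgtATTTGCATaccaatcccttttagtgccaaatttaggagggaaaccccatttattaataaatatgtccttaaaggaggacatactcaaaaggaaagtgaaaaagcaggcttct
LOC105373175 (chrX:39299787-39300036, minus strand): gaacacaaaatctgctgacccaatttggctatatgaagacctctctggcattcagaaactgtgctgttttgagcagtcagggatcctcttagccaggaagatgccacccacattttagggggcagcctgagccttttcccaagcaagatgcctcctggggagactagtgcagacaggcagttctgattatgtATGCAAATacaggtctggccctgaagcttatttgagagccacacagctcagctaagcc
LINC02863 (chr5:132427418-132427667, minus strand): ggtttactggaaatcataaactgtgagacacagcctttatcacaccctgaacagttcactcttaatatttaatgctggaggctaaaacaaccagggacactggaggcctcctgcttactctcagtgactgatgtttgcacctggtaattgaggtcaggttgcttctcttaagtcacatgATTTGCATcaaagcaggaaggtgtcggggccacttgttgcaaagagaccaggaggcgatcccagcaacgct
CCR6, the receptor for the chemokine CCL20 on B and T cells, has its octamer at position -84 from an annotated start, 35.5 bp from the OCT2 summit. TRIM34, a tripartite-motif gene, has it at -223 and 28.5 bp from the summit. ARHGAP25, a GTPase-activating protein for Rac in blood cells, has 1 at -62 and another at 13, the nearer of them 14.5 bp from the summit. The starts of these genes used here are not at their outer ends. Their OCT2 summits lay 10.5 kb (CCR6), 12.1 kb (TRIM34) and 24.8 kb (ARHGAP25) from the nearest boundary of the gene. The distance to the summit was 7.5 bp for the zinc-finger gene ZNF92 and, among lncRNA genes, 2.5 bp for LOC124902541, 5.5 bp for LOC105371388, 10.5 bp for LOC105373175 and 46.5 bp for LINC02863. The OCT2 summit at LOC105371388 lies 22.6 kb from the nearest boundary of IRF8, a transcription factor of germinal centre B cells, and that at LOC124902541 lies 90.2 kb from KLF6, a zinc-finger factor.

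Folds below are enrichment over input at a peak's summit, as the authors' peak caller gave them, and for each region the strongest peak of each list was used. In the region at this CCR6 start the folds were 7.92 for OCA-B, 9.87 for OCT2, 6.98 for MED1, 18.1 for CREBBP and 18.8 for EP300. At ARHGAP25 they were 6.91 for OCA-B, 19.5 for OCT2, 10.5 for MED1, 15.3 for CREBBP and 14.7 for EP300. TRIM34 had a higher OCT2 fold, 21.3, with 6.56 for OCA-B, 5.06 for MED1, 6.96 for CREBBP and 12.9 for EP300. Over all windows shown, OCA-B ran from 5.20 (LOC124902541) to 13.7 (LINC02863) and OCT2 from 9.87 (CCR6) to 21.3 (TRIM34). The factors' libraries are not alike in depth, antibody and duplicates, so folds of different factors at 1 site do not rank the factors.

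Few of these regions sat on a promoter octamer. The motif was in 1.29% of the windows they overlapped (12 of 933, 95% Wilson interval 0.737 to 2.23), in 2.74% of the 4017 windows overlapped by regions in all 6 lists (2.28 to 3.29) and in 1.77% of all 34961 windows. The share at the regions without OCT1 is near that of all promoters. Intervals here and below cover counting only, since neighbouring windows and regions are not independent. The 12 distinct octamers at regions without OCT1 lay a median of 32 bp from the OCT2 summit and 144.5 bp from the OCA-B summit. For the 111 octamers in regions of all 6 lists the medians were 22.5 bp to OCT2 and 26.5 bp to OCA-B. OCT2 summits were within 50 bp of 8 of the 12 octamers at regions without OCT1 and of 76 of the 111 in all 6 lists, which are like shares (66.7% and 68.5%). OCA-B summits were within 50 bp of 5 and 76 of them.

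A further 7 motifs were searched on both strands of the same windows. The ETS-factor motif CCGGAAGT was in 5.89% of windows at regions without OCT1, 9.43% at regions in all 6 lists and 4.14% of all windows. The cyclic AMP response element TGACGTCA was in 1.39%, 3.71% and 1.85% in the same order, and the palindromic NRF1 motif in 1.39%, 2.69% and 1.24%. CCAAT, read by NF-Y, was in 34.5%, 42.0% and 34.6%. These 4 motifs were thus less frequent at regions without OCT1 than at regions in all 6 lists. Except for the ETS motif (4.56 to 7.59), their intervals without OCT1 included the share of all windows. CAGGTG, an E box read by E proteins, went the other way with 20.7%, 17.9% and 20.6%, as did the composite site of ETS and IRF factors, with 4.50%, 3.41% and 2.81%. For both, the interval without OCT1 (18.2 to 23.4 and 3.35 to 6.03) overlapped that of all 6 lists (16.7 to 19.1 and 2.89 to 4.02). The E box share without OCT1 was near that of all windows. The MORE site, a palindrome bound by POU dimers, was in none of the windows of either set and in 2 of all windows. None of the 8 motifs contains another. A match says that the letters are in the window and not that a factor binds there, and most regions lie outside the windows, where no sequence was read.

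OCT1 was the factor most often missing when 1 of the 6 was missing. Among 13351 regions with exactly 5 factors, 11896 (89.1%) lacked OCT1, 658 lacked MED1, 645 lacked CREBBP, 67 lacked OCT2, 43 lacked OCA-B and 42 lacked EP300. The OCT1 list was the shortest, with 23571 peaks against 43508 to 82569 in the others, and an OCT1 peak was in 19.5% of all joined regions. When every list was shortened to its 23571 strongest peaks by q, 4808 regions had exactly 5 factors and 3372 of them (70.1%) lacked OCT1. EP300 was then missing at 492, MED1 at 355, OCT2 at 280, OCA-B at 164 and CREBBP at 145. OCT1 thus stayed the factor most often missing at equal list lengths, with a smaller share.

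**Figure D1:**
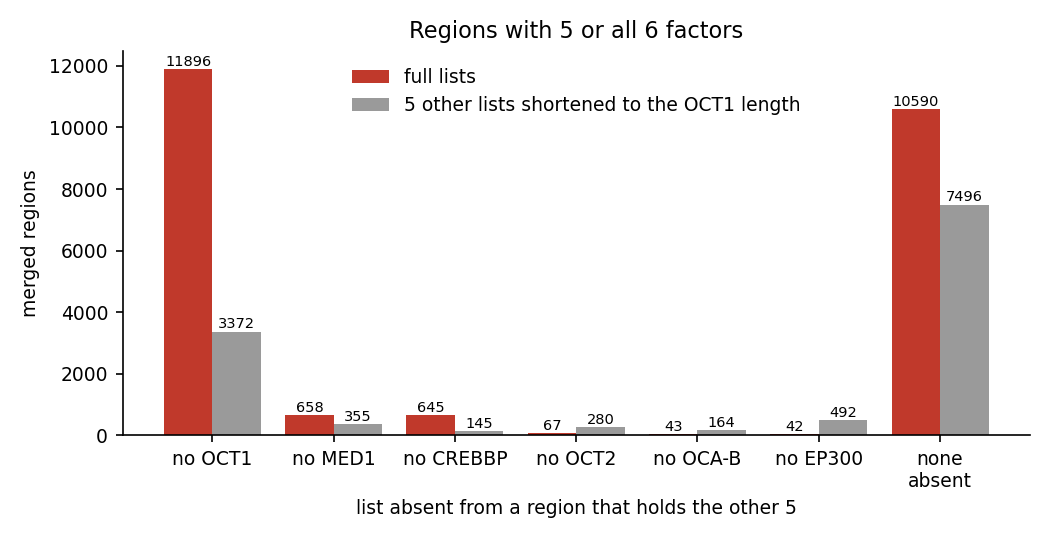
Number of joined regions lacking exactly 1 of the 6 factors, by the factor missing, with the full lists and with all lists shortened to the length of the OCT1 list. The last pair of bars counts regions in all 6 lists, 10590 and 7496. OCT1 is missing at 11896 of 13351 regions with the full lists and at 3372 of 4808 with shortened lists.

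Of the 22486 regions with the 5 other factors, 52.9% had no OCT1 peak (52.3 to 53.6). By chromosome the share lay between 45.0% on chromosome 19, where 479 of 1064 regions lacked OCT1, and 56.1% on the X chromosome. Chromosome 21 was also low, at 45.8%. The regions without OCT1 contained 26.0% of all OCA-B peaks, 19.98% of OCT2 peaks, 32.4% of MED1 peaks, 31.4% of CREBBP peaks and 15.9% of EP300 peaks.

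The regions without OCT1 had lower folds of all 5 factors than the regions in all 6 lists, with wide overlap. The median OCA-B fold was 5.98 (10th to 90th percentile 3.95 to 10.1) without OCT1 and 12.0 (6.28 to 22.9) in all 6 lists. For OCT2 the medians were 8.10 (4.46 to 15.9) without OCT1 and 17.2 (6.37 to 35.7) in all 6 lists. The cofactors followed the same order. MED1 had 5.85 without OCT1 and 9.61 in all 6 lists, CREBBP 8.03 and 16.2, and EP300 11.2 and 19.0. Single regions without OCT1 nevertheless reached folds of 45.9 for OCA-B, 50.9 for OCT2, 51.6 for MED1, 83.8 for CREBBP and 82.9 for EP300. They were also narrower, with a median width of 825 bp (194 to 8666 bp) against 1352 bp, and 65.6% of them held exactly 1 peak of each of the 5 lists, against 42.7% of the regions in all 6 lists. Width was measured over the joined peaks of all 6 lists, so OCT1 peaks can add to the second value.

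**Figure D2:**
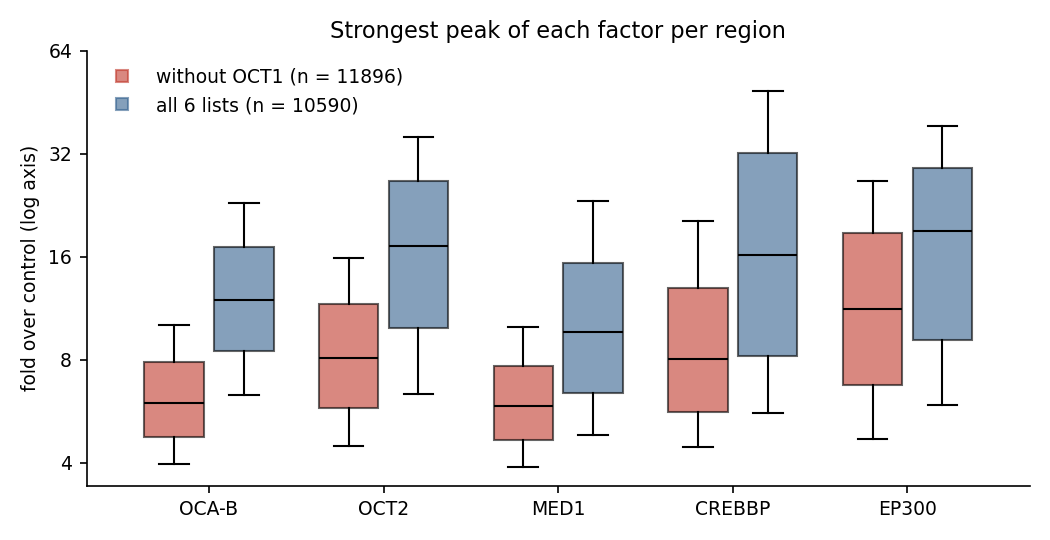
Fold enrichment over input of the strongest peak per region for OCA-B, OCT2, MED1, CREBBP and EP300, on a log axis, in regions without OCT1 and in regions in all 6 lists; boxes span the quartiles around the median and whiskers the 10th to 90th percentile. The median is lower without OCT1 for each factor, for example 5.98 against 12.0 for OCA-B and 11.2 against 19.0 for EP300, and the ranges overlap.

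The lower the OCA-B or OCT2 fold, the more often OCT1 was missing. The 22486 regions were ordered by OCA-B fold and divided into 10 equal bins. OCT1 was missing at 91.8% of regions in the weakest bin (median fold 3.82), 87.5%, 82.5%, 73.4%, 65.9%, 53.8%, 37.8%, 24.5% and 9.43% in the next bins, and 2.53% in the strongest (57 of 2249, median fold 22.6). By OCT2 fold the share was 80.7% in the weakest bin (median fold 4.20) and 4.14% in the strongest (93 of 2249, median fold 35.5), with 67.7% in the fifth. The other factors had the same direction, with 77.3% and 5.69% in the weakest and strongest bins of MED1 fold and 75.3% and 6.14% for CREBBP. EP300 fell least, with 70.4% in its weakest bin and 21.4% in its strongest. Narrow regions lacked OCT1 more often than wide ones, at 83.5% of the narrowest bin (median 433 bp) and 13.0% of the widest (median 3507 bp), and the fold bins were not adjusted for width. Part of the width trend follows from the joining, since an OCT1 peak can widen its region and a wider region has more room to overlap one.

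**Figure D3:**
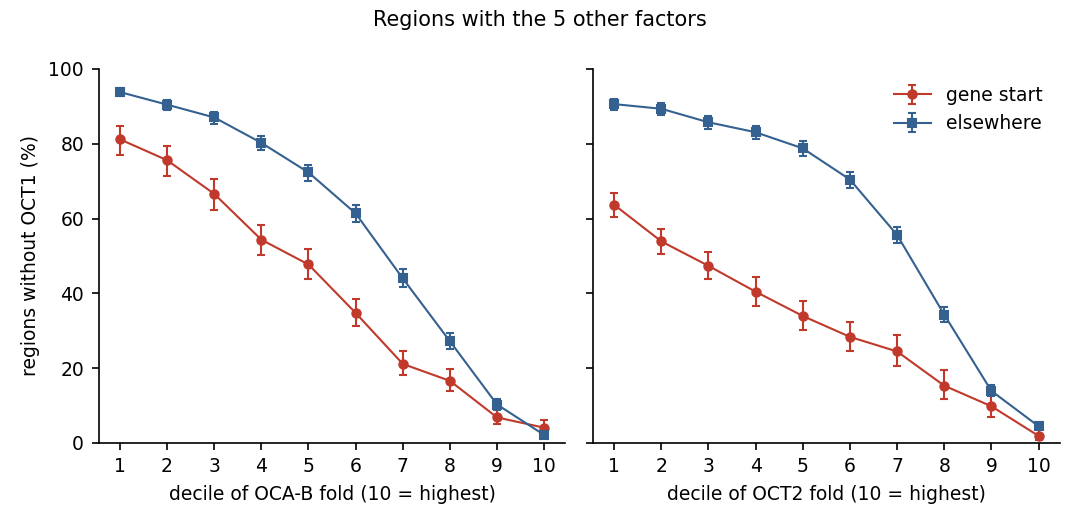
Percent of regions with the 5 other factors that had no OCT1 peak, by bin of OCA-B fold and by bin of OCT2 fold from weakest to strongest, for regions at gene starts and elsewhere, with 95% Wilson intervals as bars. The share falls from the weak to the strong bins, over all places from 91.8% to 2.53% for OCA-B and from 80.7% to 4.14% for OCT2.

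Just outside the rule were regions in all 6 lists whose OCT1 peak had the lowest −log10 q in the group, 1.31, at an OCT1 fold of 2.43. They lay 995 bp from GGA1 (OCA-B fold 8.04, OCT2 fold 4.56), 171 kb from SIX2 (8.81 and 10.3) and 18.5 kb from LOC441239 (11.4 and 14.1). Other regions were kept only by the overlap rule, since a called OCT1 peak lay 0 or 1 bp away without overlapping them. Their nearest genes were TRAK1 (OCA-B fold 7.87, OCT2 fold 10.8), LRRC37A2 (4.02 and 3.92) and PYGO2 (4.87 and 4.05). The 1538 regions in all 6 lists with an OCT1 −log10 q under 5 had median folds of 8.76 for OCA-B and 11.7 for OCT2. The 9052 with a stronger OCT1 peak had 12.8 for OCA-B and 18.7 for OCT2. Regions with a weak OCT1 peak therefore lay between those without one and those with a strong one, for MED1 (7.70), CREBBP (11.7) and EP300 (14.9) as well.

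The regions without OCT1 lay at gene starts less often than those in all 6 lists. A region was placed at a gene start when its strongest OCT2 summit was within 1 kb of the start of a protein-coding or lncRNA gene. For 10956 of the 38151 genes, which had no promoter window, either end counted as a start. This held for 17.5% of regions without OCT1 (16.8 to 18.2), 30.8% of regions in all 6 lists (30.0 to 31.7) and 18.3% of all joined regions. The share without OCT1 is near that of all joined regions. It depended on how absence was judged, and was 10.6% when OCT1 also had to be absent within 1 kb on both sides and 10.5% when the lists were shortened to the OCT1 length. The gap was widest next to the start, where 5.20% of regions without OCT1, 15.6% of those in all 6 lists and 7.38% of all joined regions had a summit within 250 bp. Beyond 500 bp and up to 1000 bp the order was the other way, with 8.56% without OCT1, 7.25% in all 6 lists and 6.63% of all joined regions.

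Further from gene starts the sets drew together. From 1 to 5 kb lay 23.1% of regions without OCT1 and 17.5% of those in all 6 lists, from 5 to 20 kb 28.0% and 23.6%, and from 20 to 100 kb 26.8% and 24.1%. Away from gene starts, 54.5% of all regions without OCT1 were inside a gene and 28.0% between genes, against 44.6% and 24.6% in all 6 lists. The summits at gene starts were a median of 490 bp from the start without OCT1 and 246 bp in all 6 lists. Of the regions with the 5 other factors, 38.9% of those at gene starts (37.6 to 40.2, 2083 of 5350) and 57.3% of those elsewhere (56.5 to 58.0, 9813 of 17136) had no OCT1.

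**Figure D4:**
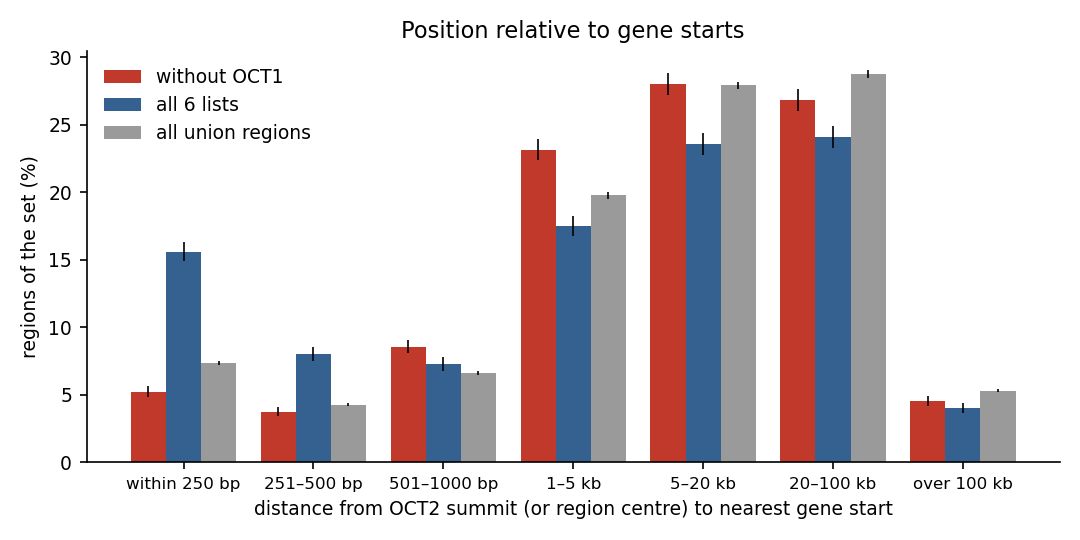
Percent of regions in each class of distance between the strongest OCT2 summit and the nearest gene start, for regions without OCT1, regions in all 6 lists and all joined regions, with 95% Wilson intervals as error bars. Within 250 bp of a start lie 5.20% of regions without OCT1, 15.6% of those in all 6 lists and 7.38% of all joined regions.

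The same difference by place was seen among regions of like strength. In the fifth bin of OCA-B fold, OCT1 was missing at 47.7% of regions at gene starts and 72.3% elsewhere, and in the fifth bin of OCT2 fold at 33.9% and 78.8%. Gene-start regions had the lower share in 9 of 10 bins of OCA-B fold and in 10 of 10 bins of OCT2, MED1, CREBBP and EP300 fold and of width. The exception by OCA-B fold was the strongest bin, with 4.05% at gene starts and 2.11% elsewhere.

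Place also separated the factors within the regions without OCT1. EP300 had a median fold of 6.97 at the 2083 regions at gene starts and 12.6 at the 9813 elsewhere, OCT2 6.43 and 8.56, and CREBBP 6.31 and 8.63. OCA-B, with 6.16 and 5.96, and MED1, with 5.74 and 5.88, hardly differed by place. In regions of all 6 lists every factor was lower at gene starts than elsewhere, OCA-B with 10.3 and 12.8 and OCT2 with 9.71 and 20.8. Away from gene starts the regions without OCT1 thus had OCT2, CREBBP and EP300 folds above their own gene-start level while OCA-B stayed level.

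Other RNA genes were overlapped less often than by regions in all 6 lists. Regions without OCT1 overlapped 2 of 154 small nuclear RNA genes, against 56 for regions in all 6 lists, and 44 of 443 tRNA genes, against 109. Small nuclear RNA promoters carry octamers within their distal sequence element and are textbook targets of OCT1. The regions were chosen for having no OCT1 peak, so a low count at such genes carries no test. Overlap was counted with the genes and not with their promoters. Genes annotated as V segments were overlapped 12 times out of 248 by regions without OCT1 and 46 times by regions in all 6 lists. These segments were not split into immunoglobulin and T-cell receptor ones. Small nucleolar RNA genes had 21 and 37 of 1196. The regions in all 6 lists are wider, and these counts were not adjusted for width or set beside those of all joined regions.

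OCT1 peaks lay within 1 kb more often at gene starts than elsewhere. The gap between a region without OCT1 and the nearest OCT1 peak had a median of 7.74 kb and reached 1462 kb. It was at most 250 bp for 813 regions (6.83%), at most 1 kb for 2290 (19.3%, 18.55 to 19.97) and at most 10 kb for 6516 (54.8%). Among gene-start regions without OCT1, 1062 of 2083 (51.0%, 48.8 to 53.1) had an OCT1 peak within 1 kb, against 1228 of 9813 elsewhere (12.5%). Within gene starts the share grew with the distance of the OCT2 summit, with 31.02% (192 of 619) up to 250 bp, 47.5% (212 of 446) beyond that and up to 500 bp, and 64.6% (658 of 1018) between 500 and 1000 bp. Many gene-start regions without OCT1 thus lie beside an OCT1 peak that they do not touch. No such share was computed for other gene-start regions, so whether this is particular to these regions was not tested.

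The regions far from OCT1 had the higher OCT2 and EP300 folds. The 2290 regions with an OCT1 peak within 1 kb had median folds of 6.24 for OCT2, 6.97 for EP300 and 5.75 for OCA-B, and 46.4% of them were at gene starts (44.3 to 48.4). The 9606 regions with none within 1 kb had 8.61 for OCT2, 12.6 for EP300 and 6.03 for OCA-B, and 10.6% were at gene starts. In the 5380 regions more than 10 kb from any OCT1 peak the medians were 9.16 for OCT2 and 13.99 for EP300. Measured to the nearest region in all 6 lists, 38.3% of regions without OCT1 (4558) were centred within 10 kb of one, with a median distance of 18.3 kb.

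Summits of the other factors were mostly close to the OCT2 summit. Without OCT1, the EP300 summit was a median of 30 bp from the OCT2 summit, CREBBP 35 bp, OCA-B 36 bp and MED1 46 bp. In all 6 lists the medians were shorter, at 25 bp for EP300, 28 bp for CREBBP, 24 bp for OCA-B and 37 bp for MED1. The 90th percentiles had the other order, at 237 bp for CREBBP to 256.5 bp for MED1 without OCT1, against 270.1 bp for OCA-B to 351.1 bp for MED1 in all 6 lists. The shares within 50 bp of OCT2 were 66.8% for EP300, 62.1% for CREBBP, 61.6% for OCA-B and 53.5% for MED1 without OCT1, against 70.2%, 68.5%, 72.0% and 60.5% in all 6 lists. Wider regions with several peaks can place the strongest summits far apart, and these distances were not adjusted for width.

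Across the regions without OCT1, the folds of the 2 acetyltransferases moved together most closely, with a Pearson correlation of log2 fold of 0.78 (0.84 in all 6 lists). MED1 with CREBBP had 0.59 and 0.83, OCA-B with OCT2 0.47 and 0.62, and OCT2 with MED1, the lowest among regions without OCT1, 0.37 and 0.54. These are descriptions over 11896 and 10590 regions that share libraries and one input, and the range of folds is narrower without OCT1.

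Some regions without OCT1 were among the strongest sites of a factor. The highest OCA-B fold, 45.9, lay 22 bp from the start of TPP1, a lysosomal peptidase gene (chr11:6619125-6619886), where OCT2 had 9.35, MED1 7.05, CREBBP 6.35 and EP300 13.2. At the start of CEP162, a centrosome gene, OCA-B had 35.4 and OCT2 6.21 (chr6:84227420-84228405). A region whose nearest gene is CISH lay at the start of MAPKAPK3, a stress kinase gene (chr3:50616180-50617038), with 24.8 for OCA-B, 3.69 for OCT2, 3.11 for MED1, 3.84 for CREBBP and 5.10 for EP300. The nearest OCT1 peak was 148 bp from this region, 2338 bp from that at TPP1 and 342699 bp from that at CEP162.

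An OCA-B fold of at least 20 was found in 29 regions without OCT1, a group chosen after the values were seen. OCT2 was below 10 at 15 of them, 8 of which were at gene starts, and at least 10 at the other 14, 5 of which were at gene starts. The first kind included the starts of DHX58, a cytosolic RNA sensor (22.1 for OCA-B, 7.76 for OCT2), ZBTB40, a zinc-finger gene (23.2 and 7.24), and ATXN3, a deubiquitinase gene (20.2 and 5.32). MCL1, an anti-apoptotic gene, was of the second kind with 20.4 for OCA-B and 10.8 for OCT2. The promoter windows of TPP1, CEP162 and MAPKAPK3 held no octamer. All factors were high 45.45 kb from TARP, in the T-cell receptor gamma locus (chr7:38318725-38319605), with 33.7 for OCA-B, 27.5 for OCT2, 20.8 for MED1, 64.1 for CREBBP and 54.2 for EP300. A region 24.96 kb from WASF3, an actin regulator, was alike, with 26.8 for OCA-B, 27.8 for OCT2, 21.1 for MED1, 43.6 for CREBBP and 46.1 for EP300.

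The 10 regions with the highest OCT2 folds shared none with the 10 of OCA-B. This says little about the factors, since each ranking takes only 10 of 11896 regions. Over all of these regions the log2 folds of OCA-B and OCT2 had a correlation of 0.47. At 225 bp from a boundary of TMEM41B, an endoplasmic reticulum membrane gene (chr11:9280361-9281372), OCT2 had 50.9, OCA-B 10.7, MED1 4.73, CREBBP 14.8 and EP300 29.9. At 1028 bp from TARS3, a threonyl-tRNA synthetase gene (chr15:101723046-101723801), OCT2 had 45.3 and OCA-B 18.1. OCT2 also had 43.7 at 4.54 kb from WDR20 and 43.6 at 23.4 kb from SETD2, a histone methyltransferase gene. A region with 47.8 lay 19.8 kb from SPDYE10, which belongs to a multicopy family, so reads there could be split between copies. At gene starts the highest OCT2 fold was 1 bp from the start of NREP, with 36.3 for OCT2 and 14.1 for OCA-B, and PAQR3 had 26.1 and 13.5. The nearest OCT1 peak was 218 bp from the NREP region and 58125 bp from that of PAQR3.

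The 10 regions with the highest MED1 folds shared none with the 10 highest of CREBBP or of EP300, which again says little. Over all 11896 regions, MED1 had correlations of log2 fold of 0.59 with CREBBP and 0.42 with EP300. MED1 had 51.6 in a region 37.1 kb from TRIM27 (chr6:28864680-28866410), with 10.5 for OCA-B, 7.31 for OCT2, 8.57 for CREBBP and 5.06 for EP300. H2BC12L, a histone H2B gene (chr21:43565136-43566293), had 39.2 for MED1, 6.04 for CREBBP, 3.72 for EP300, 6.68 for OCA-B and 10.1 for OCT2. A further 4 regions with 33.9 to 48.5 for MED1 lay 30.4 to 331 kb from TMEM121, at the immunoglobulin heavy-chain locus. Each of these 4 had an OCT1 peak 3 to 374 bp away that did not overlap it, whereas at H2BC12L the nearest was 12218 bp away. The other 2 of these 10 MED1 regions that lay nearest to TRIM27 had 35.2 and 33.8 for MED1, with 44.6 and 42.8 for CREBBP and 33.9 and 40.5 for EP300. CREBBP and EP300 were high together in a region 127 kb from CBLN1 (chr16:49149807-49151065), with 75.9 and 68.0. EP300 reached 82.9 in a region 83.9 kb from POLA1, the gene of the DNA polymerase alpha catalytic subunit (chrX:24776430-24779028), where OCT2 had 38.4. Histone H2B genes have near-identical copies, and reads there could be split.

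The second widest region without OCT1 was 7664 bp long, with its OCT2 summit 63 bp from a start of IKZF1, the gene of the lymphoid zinc-finger factor Ikaros (chr7:50305902-50313565). It held 9 OCA-B peaks, 5 OCT2 peaks, 4 MED1 peaks, 6 CREBBP peaks and 2 EP300 peaks, and none of OCT1. An OCT1 peak lay 627 bp outside it, so it would fail the rule of no OCT1 peak within 1 kb. The widest, of 8666 bp, lay 33.95 kb from ZNF860 and 2590 bp from the nearest OCT1 peak.

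Regions were assigned to the protein-coding gene whose boundary was closest to the OCT2 summit, up to 100 kb away. This assigned 10435 regions without OCT1 (87.7%) to 5650 genes, or 28.3% of all 19974 protein-coding genes, and 3357 of these had 1 such region. IGLL5, in the immunoglobulin lambda locus, had the most, with 18 regions without OCT1 and 8 in all 6 lists. FOXO1, FUT8 and PTPRJ had 13 each, beside 5, 4 and 5 in all 6 lists. FOXO1 encodes a forkhead factor of germinal centre B cells, FUT8 a fucosyltransferase and PTPRJ a receptor tyrosine phosphatase. KLHL6, PIK3AP1 and SH3KBP1, adaptors of B-cell receptor signalling or ubiquitin ligation, had 12 each, beside 6, 4 and 1 in all 6 lists. OCT2 folds at the SH3KBP1 regions without OCT1 ran from 4.46 to 16.4.

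Several other genes had 10 or 11 regions without OCT1. ETV6, an ETS repressor, and GRB2, a signalling adaptor, had 11 each, beside 4 each in all 6 lists. SHLD1, a shieldin subunit used in class switching, had 11 beside 3. ZCCHC7, the neighbour of PAX5, had 11 beside 9. GNA13, a G protein subunit that confines germinal centre B cells, had 10 beside 3, and SWAP70, a B-cell signalling protein, 10 beside 6. Genes with much sequence nearer to them than to any other gene can collect more regions, and these counts were not adjusted for it.

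Genes of germinal centre B cells held many regions without OCT1. Of 24 such genes 21 had at least 1, with a mean of 4 per gene, against 0.522 over all protein-coding genes, and regions in all 6 lists averaged 3.75 and 0.470. With lists shortened to the OCT1 length, which left 3372 regions without OCT1 in all, the mean of these genes was 0.833. The mean over all protein-coding genes was not computed for shortened lists, and 0.522 belongs to the full lists. FOXO1 (13), KLHL6 (12), GNA13 (10), and IRF8 and CXCR4 (8 each) led, and SERPINA9 and GCSAM were among those with none. The share without OCT1 among their regions with the 5 other factors was 51.6% (44.5 to 58.7), near the 52.6% over all protein-coding genes. Within the list it was uneven. BCL6, the germinal centre repressor, had 6 without OCT1 and 5 in all 6 lists, whereas BACH2 had 4 and 9 and P2RY8, a receptor that keeps B cells in the germinal centre, 4 and 10.

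B-cell identity genes averaged 2.32 regions without OCT1 and 2.56 in all 6 lists, with 19 of 25 genes holding at least 1 of the first kind. IKZF1 and IKZF3, both Ikaros-family factors, had 8 each and the kinase gene BLK 6. PAX5, the factor that fixes B-cell identity, had 4, against 10 in all 6 lists, and BANK1, CD79A, CR2, SPI1 and VPREB3 were among those with none. B-cell receptor signalling genes averaged 2.65 and 3.3, with 15 of 20 holding a region without OCT1 and 20 of 20 one in all 6 lists. PIK3AP1 (12), the kinase LYN (7), phospholipase PLCG2 (7) and the kinase SYK (6) led, and BCL10, CD79A, MALT1, VAV1 and VAV2 had none. Their share without OCT1 was 44.5% (35.9 to 53.5).

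Genes of the CD40 and NF-kB response had the higher share without OCT1, 62.0% (48.2 to 74.1), with a mean of 1.72 regions without OCT1 and 1.06 in all 6 lists and 13 of 18 genes holding at least 1. CD83, an activation marker, had 5 without OCT1 and 0 in all 6 lists. BCL2A1, a survival gene, had 4 and 1, TNFAIP3, an NF-kB inhibitor, 4 and 4, and TRAF1 4 and 3, while CCL22, CD80, EBI3, ICAM1 and NFKB2 had none without OCT1. The interval includes the share over all genes. Plasma cell genes averaged 1.75 in both sets, with 11 of 20 holding a region without OCT1. IRF4, JCHAIN and SEC11C had 4 without OCT1 and 1 in all 6 lists each, and XBP1, the secretory programme's factor, 4 and 5.

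Of 13 class II antigen-presentation genes 4 had a region without OCT1, beside 28.3% of all protein-coding genes, with a mean of 0.385 against 0.615 in all 6 lists. CIITA, their master regulator, had 2. Cell cycle genes averaged 0.75 and 0.65 and ribosomal protein genes 0.85 and 0.75, each with 10 of 20 genes. Lists of other cell types served as a check of the labelled line. Per gene, T cell genes averaged 0.65 regions without OCT1, erythroid genes 0.5, myeloid genes 0.25, neuron genes 0.15 and liver genes 0.1, with 8 of 20, 6 of 16, 4 of 20, 1 of 20 and 2 of 20 genes. The means of the germinal centre, B-cell identity, B-cell receptor, plasma cell and CD40 lists lay above all of these, that of the class II list did not, and the T cell mean was above the mean over all protein-coding genes.

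FOXO1 shows how the 2 kinds of region lie along a gene. The gene runs over chr13:40555667-40666641, and its 13 regions without OCT1 lay from 28.9 kb upstream of the start to 189.0 kb downstream of it. Of these, 6 were inside the gene and 3 upstream. The 5 regions in all 6 lists lay from 11.8 to 202.7 kb downstream of the start, with 3 inside the gene and 0 upstream. The highest MED1, CREBBP and EP300 folds among the 13 were inside the gene at 21.2 kb, with 13.6 for MED1, 32.4 for CREBBP and 34.6 for EP300, beside 16.7 for OCT2 and 6.39 for OCA-B. A region at 36.4 kb had the same OCT2 fold, 16.7, with 5.97 for OCA-B, 5.75 for MED1, 8.06 for CREBBP and 27.9 for EP300. Among the 13, OCA-B was highest at 141.2 kb, beyond the gene, with 8.46. Peaks of the 5 other factors also overlapped between -32.2 and -30.6 kb, where no OCT1 peak is drawn. They were not among the 13 because the gene boundary closest to the OCT2 summit there was not that of FOXO1. Their folds were 15.5 for OCA-B, 23.6 for OCT2, 15.6 for MED1, 41.0 for CREBBP and 31.7 for EP300.

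**Figure D5:**
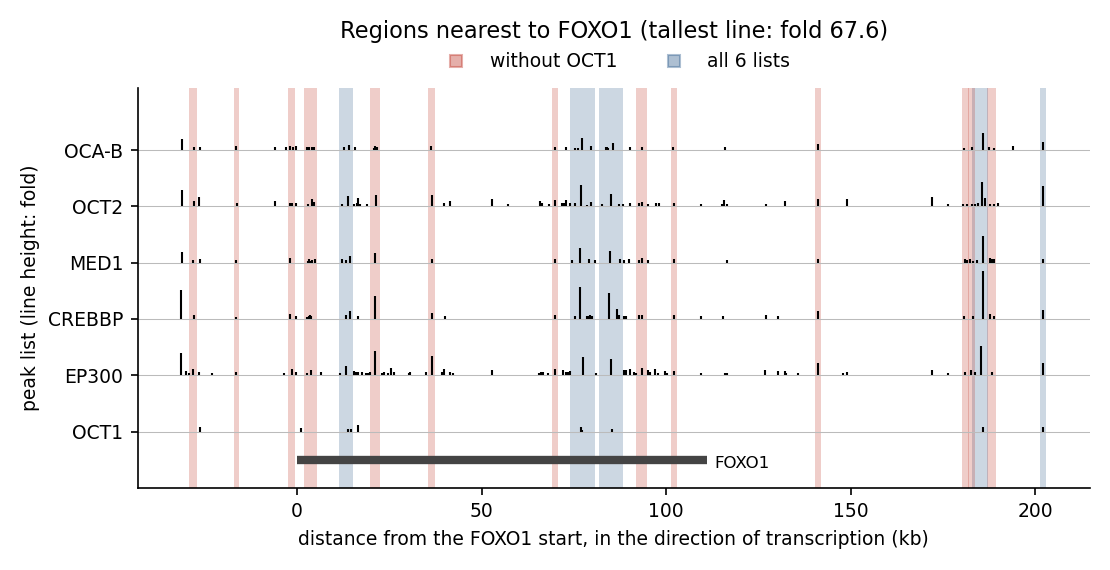
Fold enrichment of peaks of the 6 factors around FOXO1, by distance from the gene's start in kb, with line height for fold (linear, tallest 67.6) and regions nearest to FOXO1 shaded by whether they lack OCT1 or hold all 6 factors. The regions without OCT1 assigned to FOXO1 run from 28.9 kb upstream to 189.0 kb downstream of the start, and 6 of the 13 lie inside the gene. Peaks outside the assigned regions are drawn without shading.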

How the data were processed

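ChIP-seq of OCI-Ly7 cells gave 1 peak list per factor, each called on 1 library. The submitters' processing notes list hg38, MACS2 2.1.1.20160309, SAMtools 1.3.1, Bowtie2 2.3.2.2 and CASAVA 1.8.2. Per the file headers, MACS2 ran in narrow mode at q 0.05, keeping 1 tag per position, against a control of 37517450 tags. Their redundant rates were 0.08 to 0.2, except CREBBP and MED1 with 0, and whether these files had been cleared of duplicates before was not tested. The deposited lists give the pileup signal at the summit (not used), −log10 p-values (not used) and −log10 q-values, and the fold enrichment over control, a ratio, as the authors' caller wrote them.

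The lists were joined with Python 3.11.15, pandas 2.3.3, numpy 2.4.6 and scipy 1.17.1, and the joining was checked on simulated intervals. Peaks overlapping by 1 bp or more were merged on 23 chromosomes, and the highest fold per list and region was kept. Gene positions and starts came from RefSeq (GRCh38.p14). Starts were taken from 34961 promoter windows of 27195 genes, and 10956 genes without a window were placed by either end. No genome sequence was used, so the planned motif search around summits was replaced by the promoter windows, as the design allowed. Shares carry 95% Wilson intervals. No test was made. Folds are relative to input, and intervals ignore library-to-library variation.

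The regions and gene lists were chosen with earlier results of these data known. Named genes were the nearest to the 10 highest folds per factor, the 10 highest OCT2 folds at gene starts, the 10 widest regions, the 20 genes with most regions, and in each list the first 4 and those without a region. Those named outside this rule (BCL6, BACH2, P2RY8, PAX5 counts, genes near the OCT1 threshold, octamer promoters and regions of OCA-B fold 20 or more) were chosen after their values were seen. Alternatives were a summit rule, an OCT1-free flank, a stricter q, shortened lists, another placing summit and a wider start window. Some regions and genes that this rule names are not reported here.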

Additional observations from a re-analysis of the deposited data

Results flagged for a closer look

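Outside the chromosomes used above, unplaced and alternate contigs held 3807 joined regions. Of these, 390 had peaks of the 5 other factors and no OCT1 peak, and 249 had all 6. This signal was looked at because no comparison used these contigs. The contigs can repeat sequence of the chromosomes, and whether reads were shared was not tested.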

How the results depend on the processing

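No paired analysis was possible because each factor had 1 library. The count of 11896 regions without OCT1 stayed within 1.5 times under 4 of 5 alternatives (9505 to 13433) and was 3372 with lists shortened to the OCT1 length. With presence judged by summits within 250 bp of the OCT2 summit, 57.3% lacked OCT1, 19.7% were at gene starts, the median OCA-B fold was 6.27 and that of OCT2 8.39, germinal centre genes averaged 3.17 regions and 0.939% of windows held an octamer. Without any OCT1 peak within 1 kb, these values were 42.7%, 10.6%, 6.03, 8.61, 3.25 and 1.62%. With −log10 q of at least 5 in all lists, the share at gene starts was 17.5% and the medians 6.95 and 9.47, with 3.21 regions per germinal centre gene and an octamer in 1.41%. With only the OCT1 list held to that limit, 59.7% lacked OCT1, 18.6% were at gene starts and the medians were 6.22 and 8.37. With shortened lists, 31.03% lacked OCT1, 10.5% were at gene starts, the medians were 8.25 and 11.9, germinal centre genes averaged 0.833 regions and 2.26% of windows held an octamer. A start window of 2 kb took in 27.2%. Placing regions by the OCA-B summit gave 18.2% at gene starts, and it does not bear on the octamer windows. The cause of these shifts was not tested. The lists give no signal below the threshold of q, so depth limits what absence of OCT1 can mean.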
